A study of Mus musculus with 16 samples.

Results

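The 7 genes described here, Tet1, Tet2, Tet3, Tdg, Dppa3, Zfp57 and Trim28, were chosen for the part of their products in removing DNA methylation or in shielding it after fertilisation. They were taken by symbol, and all 7 were found among the 25965 gene rows of the expression table. Growing oocytes of wild-type C57BL/6 mice (C57BL/6Babr in the study's methods) had been sorted by diameter, and every library was made from a pool of oocytes. RNA-seq libraries, in duplicate (A and B), came from oocytes of 10–30 μm (postnatal days 5 to 7), 40–45 μm (days 7 to 12), 50–55 μm (days 9 to 14) and 60–65 μm (days 13 to 16), and 1 column of values came from fully grown GV (germinal vesicle) oocytes of day 20. Methylation had been measured by RRBS (reduced representation bisulphite sequencing, which samples CpG-rich sequence), in duplicate for each class from 40–45 μm upward, and by 1 PBAT library (post-bisulphite adaptor tagging, genome-wide) at 60–65 μm. Diameter and age of the mice rose together in this design and cannot be told apart. The GV column and the PBAT library have no replicate.

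The TET enzymes oxidise 5-methylcytosine to 5-hydroxymethylcytosine and further products. TDG is a glycosylase that excises the most oxidised of these, after which base excision repair restores an unmodified cytosine. TET3 is known as the enzyme of the fertilised egg, where it oxidises mainly the paternal genome. DPPA3, also called STELLA or PGC7, is a maternal protein that shields the maternal genome from this oxidation. ZFP57 is a KRAB zinc finger protein that binds a methylated motif at imprinting control regions, and it recruits TRIM28 (KAP1), a corepressor that brings histone and DNA methyltransferases to these sites. Transcripts of such factors are laid down while the oocyte grows and are used by the embryo before its own genome is active.

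The promoters of the TET genes are shown first, because their methylation in the larger oocytes differed. The windows hold the 250 bases before and the 50 after a RefSeq start (GRCm38.p6), 300 bases in all, and each CpG is in capitals. Tet3 (chr6:83441629-83441928, minus strand) holds 22 CpGs, Tet2 (chr3:133544341-133544640, minus strand) holds 57 and Tet1 (chr10:62887275-62887574, minus strand) holds 17, against a median of 7 over 32851 RefSeq promoters of this length.
Tet3: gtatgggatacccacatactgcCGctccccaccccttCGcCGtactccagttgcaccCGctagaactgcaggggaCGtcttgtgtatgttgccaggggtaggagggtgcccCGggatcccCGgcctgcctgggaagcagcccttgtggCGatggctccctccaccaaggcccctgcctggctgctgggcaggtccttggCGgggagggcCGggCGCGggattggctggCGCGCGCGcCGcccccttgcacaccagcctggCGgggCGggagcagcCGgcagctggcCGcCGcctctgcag
Tet2: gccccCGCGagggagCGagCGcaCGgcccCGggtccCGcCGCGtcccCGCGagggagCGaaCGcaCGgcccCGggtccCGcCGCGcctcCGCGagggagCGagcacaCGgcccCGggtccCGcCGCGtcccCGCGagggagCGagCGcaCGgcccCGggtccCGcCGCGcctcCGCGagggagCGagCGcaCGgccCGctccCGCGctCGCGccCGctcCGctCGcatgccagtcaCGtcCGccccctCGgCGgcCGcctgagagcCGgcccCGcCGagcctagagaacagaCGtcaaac
Tet1: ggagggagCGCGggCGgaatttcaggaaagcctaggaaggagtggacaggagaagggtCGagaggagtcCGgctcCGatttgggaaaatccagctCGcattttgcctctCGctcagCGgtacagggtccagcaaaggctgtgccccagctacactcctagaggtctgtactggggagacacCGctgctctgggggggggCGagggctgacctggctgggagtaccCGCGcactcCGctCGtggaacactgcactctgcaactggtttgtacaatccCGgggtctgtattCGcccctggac
The windows of Tdg (26 CpGs), Trim28 (23) and Zfp57 (4, 6 and 9 in 3 windows) were used as well.

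The expression values are RPKM, reads scaled to the length of a gene's exons and to the total of the library. The values are shares of a library, so that a gene's share cannot be told apart from the total RNA of an oocyte, which grows with its size. The 9 columns rested on totals of 99370000 to 198300000 reads, as recovered from the steps between the deposited values. The sum of 10 oocyte markers such as Zp1, Gdf9 and Ddx4 lay between 2274 and 3326 RPKM, all 10 being above 0.5 RPKM in every library. The sum of 10 granulosa cell markers went from between 2.07 and 2.49 RPKM at 10–30 μm to between 7.15 and 7.78 at 60–65 μm and 9.67 in GV. Most of it was Nr5a2 (1.51 to 5.56 RPKM). Of the 3 granulosa markers that passed the filter, Nr5a2 rose 3.05-fold from 10–30 to 60–65 μm (limma adjusted p = 1.6e-05). Cyp19a1 (0.160 to 1.15 RPKM) and Inha (0.168 to 0.535 RPKM) were higher as well. Both reached the filter's 0.5 RPKM only in the larger classes, so that the filter favoured a rise and no p-value is given for them. Among the other 7, which were not tested, Fshr was at 0.0490 and 0.233, Kitl at 0.166 and 0.452 and Amh at 0.0937 and 0.209 RPKM in these classes, and Foxl2 stayed at or below 0.0642 RPKM in every library. The sum of 8 stroma and theca markers went the other way, from between 2.81 and 3.92 RPKM to between 1.06 and 1.13, and 3 collagen genes made up most of it. The sum of 7 blood and vessel markers went from between 0.853 and 0.865 RPKM to between 4.74 and 5.12, with Pecam1 at 0.549 RPKM in the smaller and 4.45 in the larger class, and the haemoglobin genes at or below 0.154 RPKM. These marker sums differ between the size classes, as the members do, and their part in the results below was not tested.

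Tet3 was the TET gene of the growing oocyte and rose as the oocytes grew. Its row covers chr6:83362373-83441678 on the minus strand. Tet3 stood at 6.95 (A) and 13.8 RPKM (B) at 10–30 μm, 14.03 and 17.2 at 40–45 μm, 18.4 and 24.7 at 50–55 μm, and the largest growing oocytes, of 60–65 μm, gave 30.6 and 22.2. The GV column gave 28.1 RPKM. Both 60–65 μm libraries were above both 10–30 μm libraries and the classes lay in order of size, but the last pair of classes overlapped and the 10–30 μm libraries were themselves 6.95 against 13.8. From 10–30 to 60–65 μm the level rose 2.67-fold (log2 1.42 ± 0.28 SE, n = 2 against 2, limma adjusted p = 0.0026). In the fit of all 8 libraries with no replicate block, no single step between neighbouring classes passed the test. Some other settings gave a call, as described below.

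Tet2, the second TET gene by level, fell. It lies at chr3:133463679-133544390 on the minus strand. Its levels were 1.02 and 1.14 RPKM at 10–30 μm, 0.618 and 0.876 at 40–45 μm, 0.606 and 0.718 at 50–55 μm, 0.543 and 0.603 at 60–65 μm and 0.443 in GV. The 10–30 μm libraries were the highest, while each of the later classes overlapped or nearly overlapped the next. Tet2 was lower at 60–65 than at 10–30 μm by a log2 fold change of -0.79 ± 0.15 SE (0.579-fold, limma adjusted p = 0.0023).

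Tet1 was the lowest of the TET genes in every library. Its row covers chr10:62804570-62899118 on the minus strand. Its levels were 0.0390 and 0.0389 RPKM at 10–30 μm, 0.0321 and 0.0377 at 40–45 μm, 0.0613 and 0.0585 at 50–55 μm, 0.0815 and 0.0770 at 60–65 μm and 0.0915 in GV. These values rest on 57 to 267 recovered reads per library, the 50–55 and 60–65 μm libraries being above all smaller ones. Tet1 did not reach 0.5 RPKM in any library and was left out of the limma test. On the recovered reads, edgeR's quasi-likelihood test gave a 2.06-fold rise from 10–30 to 60–65 μm (adjusted p = 0.00076), where 61.3% of 15001 genes were called. Even in GV, Tet1 was at 0.0915 RPKM beside 28.1 for Tet3.

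**Figure D1:**
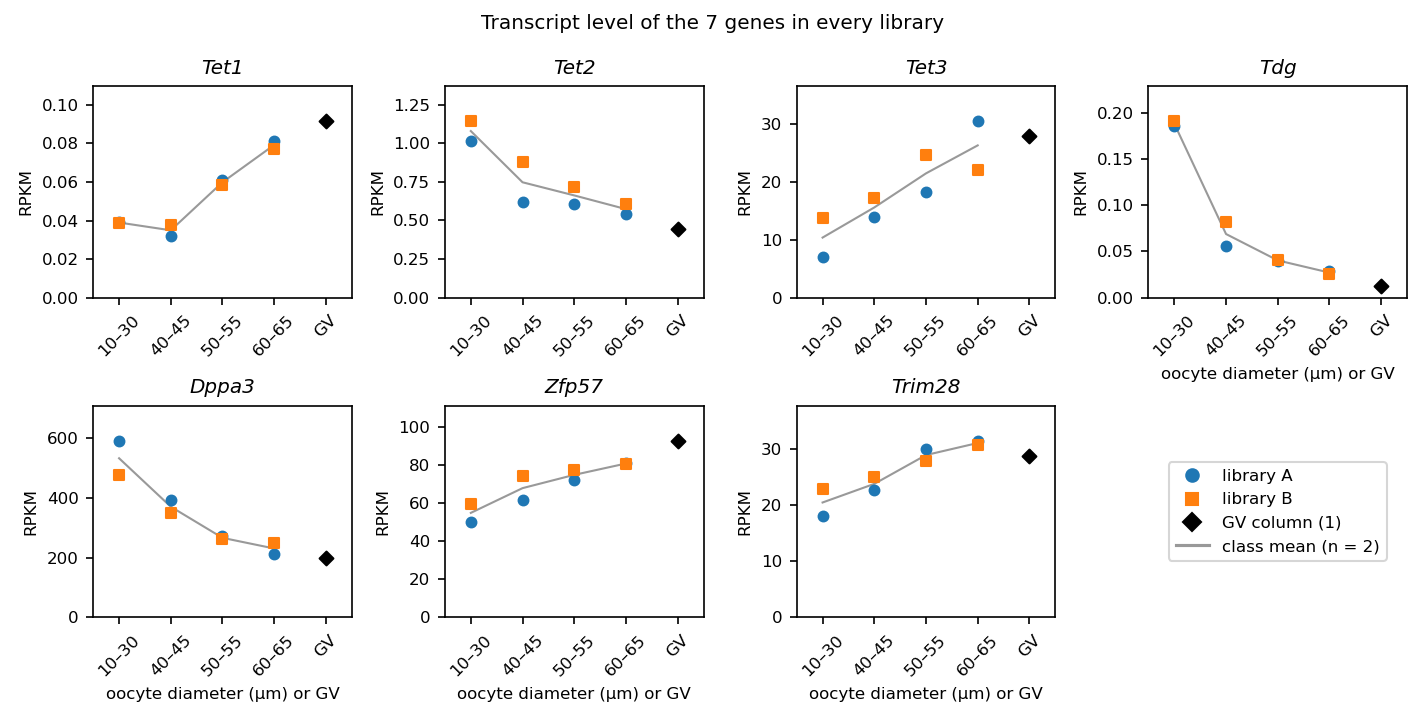
RPKM of each of the 7 genes (vertical axes, linear from 0 and scaled to each gene) against oocyte diameter or GV (horizontal axes). Points are single libraries, A as circles, B as squares and the GV column as a diamond, and the grey line joins the class means (n = 2). Tet3, Zfp57 and Trim28 climb while Tet2, Tdg and Dppa3 descend, and Dppa3 reaches 590.4 RPKM whereas Tdg stays at or below 0.191.

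Tet3 made up most of the TET transcripts in every library, and more so in the larger oocytes. In sum the 3 genes gave 8.01 and 15.0 RPKM at 10–30 μm and 31.2 and 22.9 at 60–65 μm, with 28.6 in GV. Tet3 contributed 86.8 and 92.1% of that sum at 10–30 μm, 95.6 and 94.96% at 40–45 μm, 96.5 and 96.9% at 50–55 μm, 98.0 and 97.0% at 60–65 μm and 98.1% in GV. Its share was thus higher in each later library than in either 10–30 μm library. The share of Tet2 was 12.7 and 7.61% at first and 1.74 and 2.64% at 60–65 μm, and Tet1 never exceeded 0.487%. A share does not depend on how libraries were scaled. With 2 libraries against 2 an exact two-sided permutation test cannot give a p below 0.333, so the shares were not tested.

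**Figure D2:**
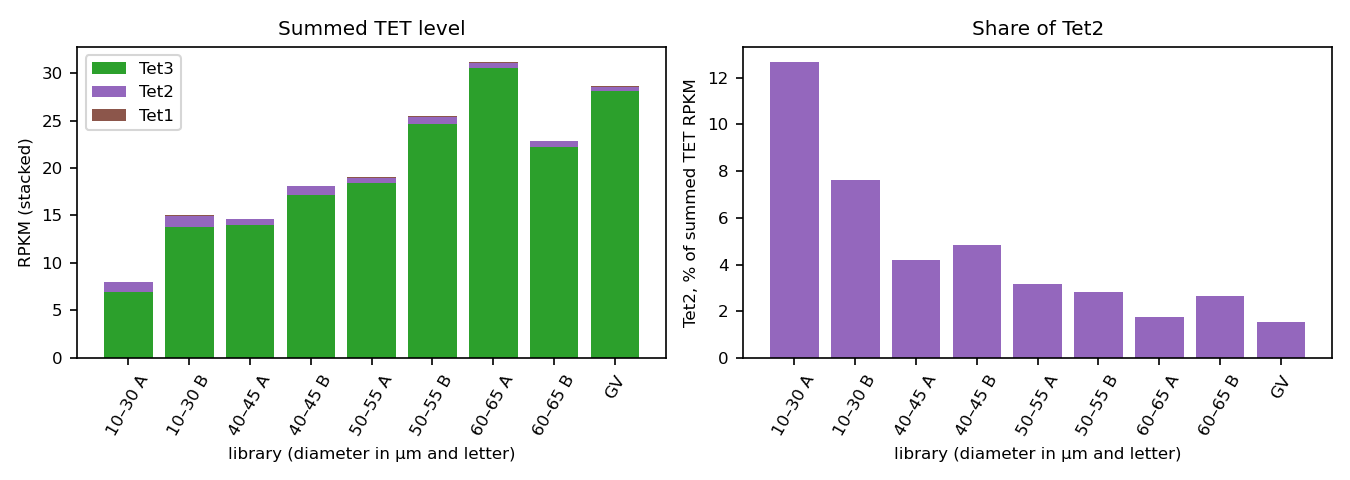
Left, summed RPKM of the TET genes in each library, stacked by gene; right, Tet2 as a percent of that sum. Bars are single libraries in order of oocyte diameter, with GV last. Tet3 fills nearly the whole bar in every library, and the Tet2 share drops from 12.7 and 7.61% at 10–30 μm to 1.55% in GV.

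Tdg, the glycosylase that acts after the TET enzymes, was barely present and fell furthest of the 7. Its row covers chr10:82629828-82650799 on the plus strand. Its levels were 0.185 and 0.191 RPKM at 10–30 μm, 0.0557 and 0.0818 at 40–45 μm, 0.0396 and 0.0409 at 50–55 μm, 0.0283 and 0.0257 at 60–65 μm and 0.0122 in GV. No class overlapped another, although the values from 50–55 μm on rest on 13 to 34 recovered reads per library. Tdg too was under 0.5 RPKM throughout and was tested on its recovered reads by edgeR, which gave a log2 fold change of -2.79 from 10–30 to 60–65 μm (edgeR adjusted p = 1.8e-05). It also called the step from 10–30 to 40–45 μm (log2 -1.34, edgeR adjusted p = 0.0033), in which 22.1% of genes were called. Reads of Tdg are uncertain. A Tdg transcript of 2959 bases matched 4 other places on chromosomes 7, 10, 15 and 19 at 98.7 to 99.6% identity over 42.3 to 98.9% of its length, and its 3′ end overlaps Glt8d2 on the other strand, itself listed at 0.0209 RPKM or less. The sum of stroma and theca markers was also highest at 10–30 μm, as given above, and whether other cells contributed Tdg was not tested.

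Dppa3 was by far the most abundant of the 7 transcripts and declined with growth. Its row covers chr6:122626410-122630272 on the plus strand. Libraries A and B gave 590.4 and 475.4 RPKM at 10–30 μm, 392.7 and 348.6 at 40–45 μm, 271.0 and 261.9 at 50–55 μm, with 213.4 and 248.2 in the 60–65 μm class. GV oocytes gave 198.2 RPKM, below all 8 libraries of growing oocytes. The classes did not overlap one another. Over the whole of growth the share fell to 0.441-fold (log2 -1.18 ± 0.16 SE, limma adjusted p = 0.00032), and Dppa3 nevertheless stayed above at least 99.86% of all genes in every library. The steps from 10–30 to 40–45 μm (log2 -0.41, limma adjusted p = 0.097) and from 40–45 to 50–55 μm (log2 -0.52, limma adjusted p = 0.078) missed the threshold in the main fit. That fit took all 8 libraries after scaling, with no replicate block, and some other settings called these steps, as described below. A copy on the X chromosome matches 98.1% of a Dppa3 transcript of 833 bases at 97.7% identity, and reads that map to either are uncertain.

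Zfp57, which reads the methylated motif of imprints, was the most abundant of the genes that rose. Its row covers chr17:37001163-37010635 on the plus strand. It stood at 50.4 and 59.5 RPKM at 10–30 μm, 61.5 and 74.4 at 40–45 μm, 72.2 and 77.6 at 50–55 μm, 81.0 and 80.7 at 60–65 μm and 92.6 in GV. Only the 40–45 and 50–55 μm classes overlapped. From 10–30 to 60–65 μm it rose 1.5-fold (log2 0.58 ± 0.11 SE, limma adjusted p = 0.0020).

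Trim28, the corepressor that ZFP57 recruits, rose by a like amount from a lower level. Its row covers chr7:13024152-13031035 on the plus strand. It gave 18.0 and 22.8 RPKM at 10–30 μm, 22.6 and 24.9 at 40–45 μm, 29.9 and 27.8 at 50–55 μm, 31.3 and 30.7 at 60–65 μm and 28.7 in GV. The 10–30 and 40–45 μm classes overlapped, and the GV value lay within the range of the 50–55 μm class. The rise from 10–30 to 60–65 μm was 1.55-fold (log2 0.63 ± 0.11 SE, limma adjusted p = 0.0013). The ratio of Zfp57 to Trim28 stayed between 2.41 and 3.22 in all 9 columns. The ratio of Dppa3 to Tet3, the shield and the enzyme it holds off, went from 84.9 and 34.4 at 10–30 μm to 6.98 and 11.2 at 60–65 μm and 7.06 in GV, the 60–65 μm libraries lying below both 10–30 μm libraries and the GV value within the 60–65 μm range.

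The comparison of the smallest with the largest growing oocytes asked how the transcripts differed over the whole of growth, of which methylation was measured from 40–45 μm on. Of the 7 members, 5 passed the filter of 0.5 RPKM in 2 of 8 libraries, and each of the 5 was at or above 0.5 RPKM in all 8. All 5 changed by limma at an adjusted p under 0.05, in a comparison in which 63.4% of 10518 genes were called. Tet3, Zfp57 and Trim28 were higher, beside 32.6% of genes called higher, and Tet2 and Dppa3 were lower, beside 30.8% called lower. At this background a change over the whole of growth was common, and the count of 5 of 5 is not a result about these genes. The median log2 fold change was 0.58 for the 5 members and 0.02 over all genes tested. The GV column was set against the mean of the 60–65 μm libraries without a test. Tet3 was at 1.06, Zfp57 and Tet1 each at 1.15, Trim28 at 0.927, Dppa3 at 0.859, Tet2 at 0.773 and Tdg at 0.452 times the earlier level.

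Single steps of growth carried few calls in the main fit, which took all 8 libraries after scaling and had no replicate block. From 10–30 to 40–45 μm only Zfp57 passed among the 5 tested (log2 0.41 ± 0.11 SE, limma adjusted p = 0.032), where 23.4% of genes were called. That call was lost with RPKM as deposited (limma adjusted p = 0.11), where Dppa3 was called in its place (log2 -0.52, limma adjusted p = 0.029). It was also lost with quantile normalization (limma adjusted p = 0.18), without the filter (0.066), and when 10–30 μm A, 40–45 μm B or any 50–55 or 60–65 μm library was left out. Without 10–30 μm B, in contrast, 4 members passed (Tet3, Dppa3, Zfp57 and Trim28), Tet3 by a log2 fold change of 1.21, and without 40–45 μm B Tet2 passed (limma adjusted p = 0.040). Tet3 over all libraries had a log2 fold change of 0.76 ± 0.28 SE in this step and missed the threshold (limma adjusted p = 0.088), and without 10–30 μm A its log2 fold change was 0.31 (limma adjusted p = 0.41). With A and B as a replicate block, a pairing that no source states, Tet2 (limma adjusted p = 0.0308), Tet3 (0.048) and Trim28 (0.0432) passed beside Zfp57. From 40–45 to 50–55 μm limma called 0 of 5 members, against 8.87% of all genes, and 1 of them, Dppa3, had an unadjusted p under 0.05. It was called when either 10–30 μm library was left out and with the replicate block (limma adjusted p = 0.0431). In the same step edgeR on recovered reads called 1 of 7, Tet1 (log2 0.73, adjusted p = 0.038), beside 8.18% of genes. From 50–55 to 60–65 μm limma called 0 of 5 members and 0.0% of all genes, with 0 members and 1450 genes at an unadjusted p under 0.05, and edgeR also called 0 genes.

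**Figure D3:**
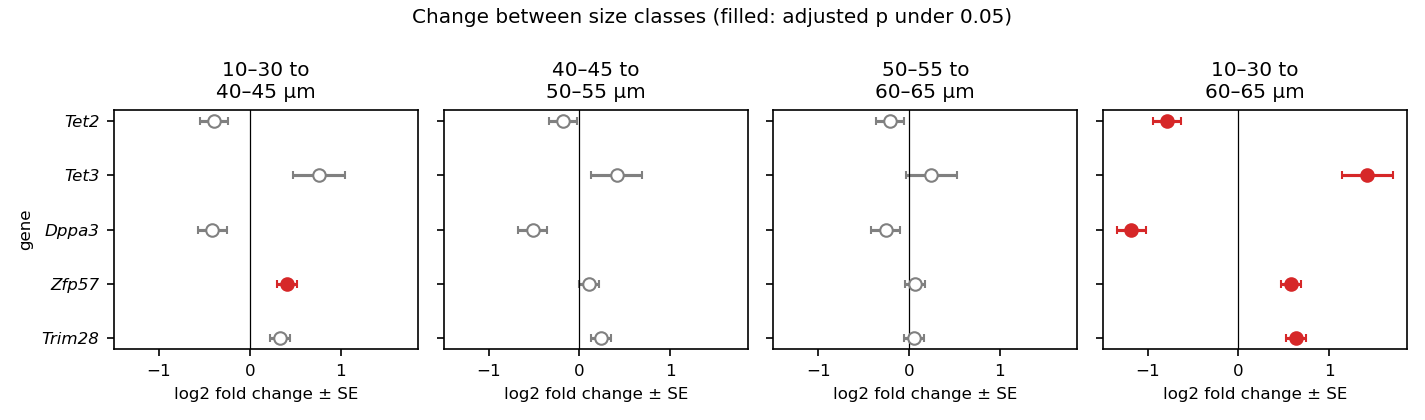
Log2 fold change ± SE (horizontal axes, limma) of the 5 tested genes in the 3 steps between neighbouring size classes and, at the right, from 10–30 to 60–65 μm. Filled red points have an adjusted p under 0.05 and open grey points do not, n = 2 libraries a class. All 5 are filled over the whole of growth, from -1.18 for Dppa3 to 1.42 for Tet3, and in the single steps only Zfp57 from 10–30 to 40–45 μm.

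The genes whose course over the 9 columns was most like that of a member were found among 8532 genes of at least 1 RPKM on average. Likeness was the root mean square difference of centred log2 levels. For Tet3 the nearest were Efnb2 (0.112), Foxk1 (0.116) and Cacnb3 (0.120), for Dppa3 they were Mnd1 (0.034), Rps25 (0.050) and Taf1d (0.054), for Zfp57 they were Mcm4 (0.038), Naa40 (0.050) and Atp11a (0.051), and for Trim28 they were Spint1 (0.041), Anks1 (0.053) and Add3 (0.058). By this measure, which grows with the size of a gene's changes, Tet3 had no neighbour as close as those of the other 3 genes. By Pearson correlation Tet3 with Efnb2 was at 0.993 and Dppa3 with Mnd1 at 0.998. Zfp57 with Mcm4 was at 0.990 and Trim28 with Spint1 at 0.991. Mnd1, which encodes a meiotic recombination factor, went from 13.3 RPKM at 10–30 μm to 5.61 at 60–65 μm and 4.77 in GV, beside 532.9, 230.8 and 198.2 for Dppa3. The 9 columns share the trend of growth, and 63.4% of genes changed along it.

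Other glycosylases and repair factors that can act after TET oxidation were present at higher levels than Tdg. Of 16 listed genes 13 were tested, and from 10–30 to 60–65 μm 2 rose, 4 fell and 7 did not pass, with a median log2 fold change of -0.01. The 6 called stand beside the 63.4% called over all genes. Neil3, a glycosylase of oxidised bases, rose 1.94-fold, from 2.63 to 5.13 RPKM (limma adjusted p = 0.00015). Smug1, a glycosylase that removes uracil and its oxidised forms, rose 1.37-fold, from 6.11 to 8.31 RPKM (limma adjusted p = 0.0035). Parp1, a sensor of strand breaks, fell to 0.567-fold, from 23.7 to 13.2 RPKM, and had the highest level of the list in the smallest oocytes. Gadd45a, Gadd45b and Mbd4 fell as well, Mbd4 being a glycosylase of mismatched thymine and Gadd45a falling to 0.458-fold. Ung (14.7 and 13.3 RPKM) and Xrcc1 (13.97 and 14.3 RPKM), members of uracil removal and of single-strand break repair, did not pass the test.

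Of 11 listed regulators of the TET enzymes 9 were tested, and 2 rose and 3 fell over the whole of growth, with a median log2 fold change of 0.11. With 63.4% of all genes called, in nearly equal parts higher and lower, the count of 5 of 9 is near the background. Vprbp (Dcaf1), the substrate receptor of the CRL4 ubiquitin ligase that modifies TET proteins, rose 1.91-fold (limma adjusted p = 8.7e-05), from 5.59 to 10.6 RPKM. In the step from 10–30 to 40–45 μm, where 23.4% of all genes were called, Vprbp passed as higher (limma adjusted p = 0.011) and Cxxc5 as lower. Ddb1, the adaptor of the same ligase, was the most abundant gene of the list at 44.1 and 54.8 RPKM and rose. Cul4a and Rbx1, the scaffold and the RING subunit, fell, while Cul4b at 16.8 and 19.7 RPKM did not pass. Cxxc5, a CXXC protein related to one that lowers TET2, went from 0.814 to 0.119 RPKM and is 1 of the 3 counted as lower. Its class mean was above the filter's 0.5 RPKM only at 10–30 μm, so that the filter favoured a fall and no p-value is given for it. Ogt, the glycosyltransferase that binds TET proteins, and Idh1, a source of their cofactor, did not pass.

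All 14 genes of a list of TRIM28 partners were tested. Over the whole of growth 2 rose, 5 fell and 7 did not pass, with a median log2 fold change of -0.10. The 7 of 14 called are likewise to be read beside the 32.6% of all genes called higher and 30.8% called lower. Setdb1, the H3K9 methyltransferase recruited by TRIM28, rose 1.59-fold (limma adjusted p = 0.00034), from 12.3 to 19.5 RPKM, close to the 1.55-fold of Trim28 itself. Atf7ip, the cofactor of SETDB1, also rose. Cbx3 (HP1γ) fell to 0.332-fold and Zfp809, a KRAB zinc finger protein that silences retroviral elements, fell to 0.3-fold, from 2.27 to 0.602 RPKM. Hdac1 fell to 0.428-fold, and Cbx5 fell as well. Zfp445, which shares with ZFP57 the upkeep of imprints, was at 3.05 and 3.54 RPKM, beside 54.9 and 80.9 for Zfp57, and did not pass. Trim24 was the most abundant gene of the list at 28.9 and 33.3 RPKM.

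Of 6 factors that keep up methylation in the early embryo, Ctcf rose 1.67-fold (limma adjusted p = 0.00052) and the other 5 did not pass, where 63.4% of all genes were called. Dnmt1, the maintenance methyltransferase, was the highest of them at 371.8 RPKM at 10–30 μm and 382.3 at 60–65 μm, and Uhrf1, its partner at hemimethylated CpGs, stood at 122.1 and 113.6 RPKM. A p above the threshold does not show that these levels were alike.

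The Tet3 gene itself was more methylated in the larger oocytes, in which its transcript was also higher. CpG cytosines with at least 5 reads were averaged within 1 kb of the start of the table's row, and over the rest of the gene. At the Tet3 start, the 40–45 μm libraries gave 0.781% (A) and 0.0896% (B) by RRBS. Those of 50–55 μm gave 9.43 and 11.4%, and those of 60–65 μm gave 22.1 and 30.5%, from 22 to 47 positions a library. The classes did not overlap. PBAT gave 30.5% over 67 positions at 60–65 μm. Over all genes the median at starts was 0.546 to 0.608% by RRBS at 60–65 μm and 3.87% by PBAT, and Tet3 was above 94.7% of 19669 gene starts in the PBAT library. On the 11 positions covered in all 6 RRBS libraries the order was kept, with 0.526 and 0.269%, 4.68 and 18.2%, and 19.3 and 21.5%. The last pair of classes was then close, 18.2% in 50–55 μm B against 19.3% in 60–65 μm A.

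Calls within the promoters were summed over positions with at least 5 reads, here and for the other windows. Within the Tet3 promoter printed above, methylated calls numbered 2 of 285 (0.702%, 95% Wilson interval 0.193 to 2.52%) in 40–45 μm A. In 40–45 μm B there were 0 of 232, which allows a share of up to 1.29% (3 calls of the total, the limit used here for a count of 0). At 50–55 μm they were 37 of 465 (7.96%, 5.83 to 10.8%) in A and 12 of 53 (22.6%, 13.5 to 35.5%) in B. At 60–65 μm they were 72 of 287 (25.1%, 20.4 to 30.4%) and 46 of 146 (31.5%, 24.5 to 39.4%), and 86 of 264 by PBAT (32.6%, 27.2 to 38.4%). Within these 300 bases the share was higher in each larger class, in both replicates, although the interval of 50–55 μm B, on few calls, covers both RRBS shares of 60–65 μm. Intervals and limits cover counting error only, since copies made by PCR were not removed from RRBS.

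The Tet2 promoter printed above had few methylated calls by RRBS, and the Tet1 promoter was sparsely covered. At the Tet2 window RRBS found 11 of 1230 (0.894%, 0.500 to 1.59%) and 0 of 898 calls methylated at 40–45 μm, 7 of 1411 and 9 of 930 at 50–55 μm, the latter being the highest share (0.968%, 0.510 to 1.83%), and 8 of 1177 and 3 of 884 at 60–65 μm. PBAT found 49 of 738 (6.64%, 5.06 to 8.67%), which is above the RRBS values of the same class. Starts of all genes were also higher by PBAT, with a median of 3.87% within 1 kb, against 0.546 to 0.608% by RRBS at 60–65 μm. At the Tet1 window 0 of 102 PBAT calls were methylated, which allows up to 2.94% by the same limit. RRBS found 0 of 93 in 40–45 μm A, which allows up to 3.23%, and 0 of 10 to 36 calls in each of the other 4 libraries with such positions, too few to set a useful limit. The Tdg window had 0 methylated calls in the 6 RRBS libraries and 4 of 249 by PBAT (1.61%), and the Trim28 window had 6 of 272 by PBAT (2.21%). Of the 3 Zfp57 windows 2 had PBAT positions with at least 5 reads, 0 of 19 and 0 of 17 calls being methylated, again too few. No test was run on these values, as 2 libraries against 2 cannot give an exact permutation p under 0.333.

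Over the bodies of the genes the picture was more varied. By RRBS the Tet3 body was at 2.23 and 0.791% in the 40–45 μm libraries, 11.7 and 13.5% in those of 50–55 μm, and 26.9 and 31.1% in those of 60–65 μm, with no overlap between classes. It was at 39.8% over 472 positions by PBAT, above 62.5% of 18752 bodies. Bodies of all genes were also higher in larger oocytes, with RRBS medians of 1.64 and 1.24%, 4.09 and 8.29%, and 6.43 and 6.78%. Their upper quartiles at 60–65 μm, 30.9 and 32.4%, lay above the Tet3 values of the same libraries. With a minimum of 1 read in place of 5, 50–55 μm A gave 38.4%, above both 60–65 μm libraries (29.6 and 30.9%), and the classes then overlapped. The median body of all genes in that library moved as well, from 4.09% with 5 reads to 39.9% with 1, against 15.4 and 9.30% in the 60–65 μm libraries with 1 read. On the 32 body positions shared by the 6 libraries the values were 2.52 and 1.05%, 10.96 and 11.7%, and 27.2 and 29.6%. In the PBAT library Tet2 had the highest body of the 7 at 46.1% (159 positions), followed by Tet3, Trim28 at 31.8% (33 positions), Dppa3 at 21.3% (8 positions) and Tdg at 19.4% (54 positions). By RRBS at 60–65 μm the order of the first pair was the other way, with the Tet2 body at 11.5 and 15.7% on 13 and 14 positions, below Tet3. At 40–45 μm the Tet2 body was at 10.4 and 0.977% and at 50–55 μm at 6.91 and 0.595%, so that the replicates lay far apart. Zfp57 at 5.95% (64 positions) and Tet1 at 5.48% (387 positions) were far lower, below the median of 25.2% over 18752 genes. The Zfp57 and Trim28 values depend on the settings, as Zfp57 was at 17.0% with a minimum of 1 read and 0.745% with 10, and Trim28 at 11.1% with only 0.5 kb around its start left out. At the minimum of 5 reads, the near-equal bodies of Zfp57 and Tet1 belong to genes of very different level in the 60–65 μm class, 80.7 and 81.0 RPKM for Zfp57 and 0.0770 and 0.0815 RPKM for Tet1. The RRBS values of the Tet1 body stayed between 0.230 and 1.17% in all 6 libraries.

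**Figure D4:**
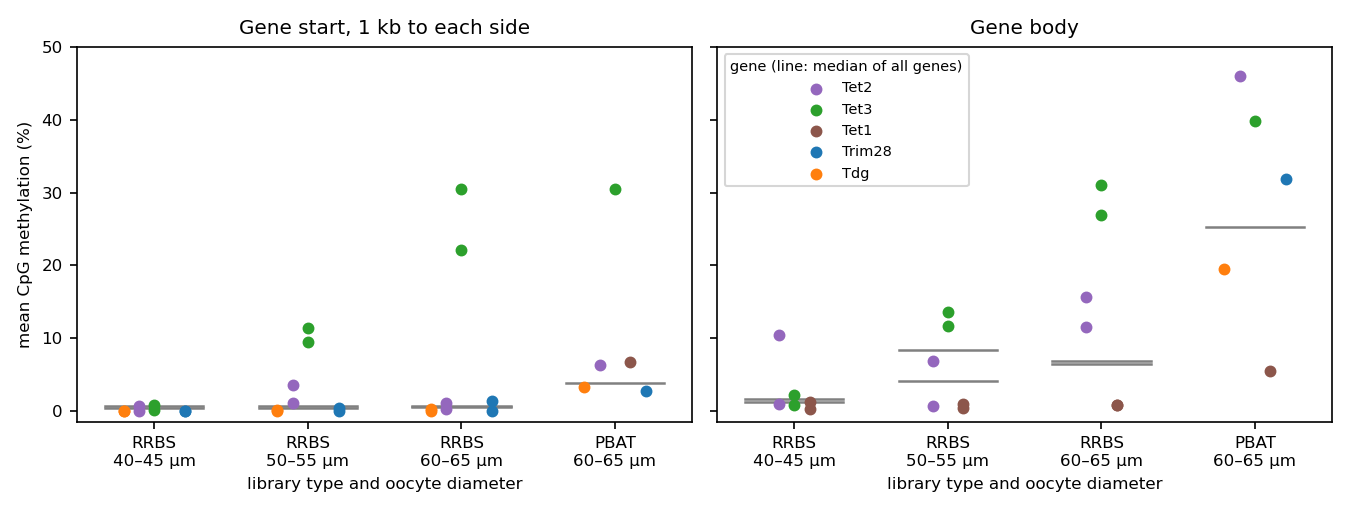
Mean CpG methylation in percent (vertical axes) within 1 kb of the gene start (left) and over the gene body (right), by library type and oocyte diameter. Each point is 1 library with at least 5 covered positions, for Tet1, Tet2, Tet3, Tdg and Trim28, and grey lines are the medians of all genes in each library. The start of Tet3 stands above those of Tet2, Tdg and Trim28 from 50–55 μm on, reaching 22.1 and 30.5% by RRBS at 60–65 μm, and Tet1 has a start value by PBAT alone. Of the bodies, Tet2 is highest by PBAT and Tet3 by RRBS at 60–65 μm.

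The start of the Tet3 row is not the outermost start of the gene. Coding transcripts in GENCODE vM21 also begin 14714 and 17406 bases upstream of it, so that the methylated start lies inside longer annotated transcripts. Within 500 bases of the start 14714 bases upstream, RRBS gave 1.59 and 1.29% at 60–65 μm and 1.97 and 0.00% at 40–45 μm, and PBAT gave 6.58% over 79 positions. In the same PBAT library the start of the row had 31.2% within 500 bases. In bins of 2 kb the PBAT values were 0.00 to 5.93% between 20 and 14 kb upstream of the row's start. Nearer to it they were uneven, at 16.03, 15.9, 14.7, 2.74 and 23.9% in the 5 bins between 14 and 2 kb upstream that had enough positions. They were 31.4 and 30.5% in the bins just before and just after it, and from 19.1 to 61.6% over the bins further along the gene that had 5 or more positions. Which of these starts the oocyte used cannot be read from the values per gene. For Tet1 the row's start had almost no covered CpG, and around the annotated start 11794 bases further in, RRBS stayed at or below 0.846% and PBAT at 2.43%. For Zfp57 the start 1362 bases further in had 0.00 to 1.47% by RRBS and 1.504% by PBAT.

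**Figure D5:**
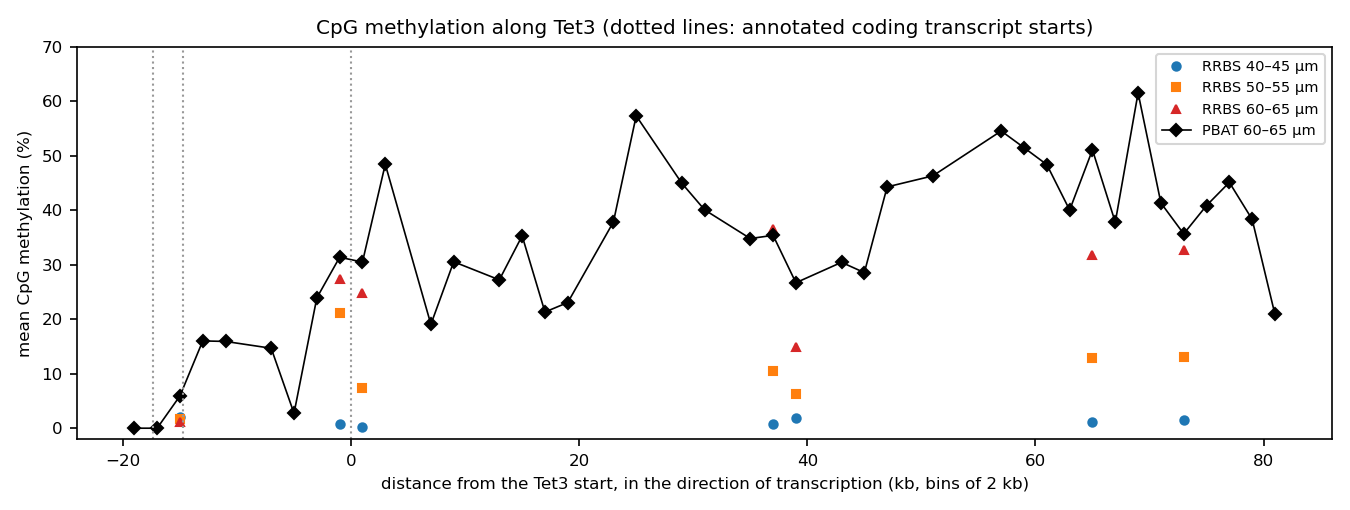
Mean CpG methylation in percent along Tet3 in bins of 2 kb with at least 5 covered positions, by distance from the start of the table's row in the direction of transcription. Black diamonds are the PBAT library and coloured points the means of the RRBS libraries with a value, and dotted lines mark annotated starts of coding transcripts. The starts upstream lie in bins of 0.00 to 5.93% by PBAT, and from the row's start onward the 60–65 μm values exceed those of 50–55 and 40–45 μm wherever RRBS has a bin.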

How the data were processed

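RNA-seq (9 columns), RRBS (6 libraries) and PBAT (1 library) of sorted mouse oocytes were used. For RNA-seq, the authors made strand-specific paired-end libraries, aligned trimmed reads with TopHat2 2.0.9 (submitters' processing notes) and deposited RPKM per reference gene, with coordinates of GRCm38. The methods name both Cufflinks and SeqMonk, and which made the table, and whether counting used strand, is not given in the sources used here. The table's file name speaks of counts, but its values are RPKM. For RRBS and PBAT, the authors aligned reads to GRCm38 with Bismark, 0.14.0 for RRBS and 0.10.0 for PBAT, and deposited the percent methylated and the counts of methylated and unmethylated calls per CpG cytosine. PBAT had duplicates removed, and replicates were not pooled.

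The 7 members and all gene lists were chosen with earlier results of these data known. Levels were tested with limma 3.58.1 (trend in the variance, Benjamini-Hochberg adjustment over all 10518 genes, threshold 0.05) on log2 of RPKM plus 0.1, in 1 fit of the 8 libraries of growing oocytes with a mean per class. Libraries were first scaled by a trimmed mean (30% of genes trimmed by ratio and 5% by level at each end, factors 0.942 to 1.06). Fold changes of low genes are understated on this scale. Genes of at least 0.5 RPKM in 2 of 8 libraries were tested. Labels do not say that A and B came from separate mice, so that p-values measure the spread between these libraries, which may be technical. RPKM values fell on steps of 1 read, so that whole reads were recovered, within 0.01 of a read plus rounding, for 20276 of 25965 rows (5687 were 0 throughout and 2 failed). A read pair can count more than once. These reads were tested with edgeR 4.0.16 (15001 genes) as an alternative added after the data were seen, which gives the values of Tet1 and Tdg. With limma and no filter their log2 fold changes from 10–30 to 60–65 μm were 0.37 and -1.16, smaller since the pseudocount is near their level. The tests were tried on simulated data first.

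Named were the members, genes of the fixed lists that passed in any comparison or were the highest of their list, further list genes given as examples of those that did not pass, and the 3 genes most like each member of at least 1 RPKM on average. Some genes counted in the lists are not reported here by name. Atf7ip has 2 rows, of which the first was used. Methylation was averaged over positions with at least 5 reads, for starts and bodies with at least 5 such positions (10 for bodies of all genes). Positions on each strand were counted apart. Summed calls on chromosomes 1 to 19 and X were 29942043 to 57215134 for RRBS and 98148116 for PBAT. Copies of transcripts were sought with minimap2 in GRCm38. Promoters come from RefSeq (GRCm38.p6) for 6 of the 7 members (not Dppa3), and coding transcript starts from GENCODE vM21. Python 3.11.15 and R 4.3.3 were used.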

Additional observations from a re-analysis of the deposited data

How the results depend on the processing

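From 10–30 to 60–65 μm the same 5 members were called by limma under every alternative tried (pseudocount, scaling, variance trend, replicate block and each library left out), with log2 fold changes of 0.963 to 1.863 for Tet3 and adjusted p up to 0.028. Without the filter and by edgeR all 7 were called. From 10–30 to 40–45 μm the count of 1 became 0 with quantile normalization, 4 with the replicate block (Zfp57, Tet2, Tet3 and Trim28), 2 with edgeR (Tdg and Zfp57), and 0 to 4 with a library left out. From 40–45 to 50–55 μm the count of 0 became 1 with the replicate block (Dppa3), 1 with edgeR (Tet1), and 0 to 1 with a library left out. No source says what A and B share. The correlation of their deviations was 0.589 to 0.67 among the 3 smaller classes but -0.227 to 0.113 between these and 60–65 μm, so that the letters were not taken as pairs over the whole design, and the data alone hint at a pairing below 60–65 μm. Of 320 recomputed log2 fold changes 2 changed sign, both in the step from 40–45 to 50–55 μm and near 0. Zfp57 ranged from -0.001 to 0.212 there and Tet2 from -0.372 to 0.02 with a library left out.

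For Tet3 methylation, a minimum of 1 read in place of 5 moved the start at 50–55 μm to 7.96%, the body at 40–45 μm to 4.81% and the body at 50–55 μm to 24.97%, the last because 50–55 μm A alone gave 38.4%, above both 60–65 μm libraries (29.6 and 30.9%). A minimum of 10 reads moved the start at 50–55 μm to 8.11% and, in PBAT, the start to 25.01% and the body to 36.2%. The order of the class means was kept. Among all members 29 of 107 recomputed methylation means moved by more than the spread between replicates or the counting interval. With 2 libraries a class, small changes were not detectable, and at 13 to 34 reads from 50–55 μm on, Tdg levels are imprecise.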
